A study of Mus musculus with 6 samples.

Results

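The receptors described here let mice detect pheromones, tastants and volatile amines, and the arrays measured how much DNA around their genes was recovered with SMAD antibodies from embryonic stem cells. All non-control probes were taken whose gene name, or whose listed accession entry at a shared promoter, begins with V1r, V2r, Vmn1r, Vmn2r, Tas1r, Tas2r or Taar. This gave 3345 of 474380 probes and 170 of 16859 named genes. The V1r family held 115 genes and 2060 probes, the Tas2r family 33 genes and 828 probes, the Taar family 15 genes and 359 probes, the V2r family 4 genes and 18 probes, and the Tas1r family 3 genes and 80 probes. Of the receptor probes, 2238 were annotated as promoter, 578 as downstream, 501 as inside a gene and 28 as a divergent promoter. Another 6 genes that belong to these families under current names carry other names on the array and are outside this selection.

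V1r and V2r proteins are receptors of sensory neurons in the vomeronasal organ, where they couple to different G proteins and open the channel Trpc2. Tas1r proteins pair up in taste cells to sense sweet or umami compounds, and Tas2r proteins sense bitter compounds. Most Taar proteins sense volatile amines in olfactory neurons, whereas Taar1 is known from the brain. These genes lie in clusters of close relatives, and each vomeronasal or olfactory neuron usually expresses very few of them. Among the SMAD proteins, those of the BMP branch include SMAD1 and SMAD5, SMAD2 belongs to the Activin and Nodal branch, and both branches use SMAD4.

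The cells were R1, a mouse embryonic stem cell line, kept undifferentiated without feeder cells in medium with knockout serum replacement and leukemia inhibitory factor. No genotype, treatment or time differed between the samples. Chromatin was recovered with antibodies raised against the linker regions of recombinant human SMAD1 (for SMAD1/5), SMAD2 or SMAD4. The recovered DNA (ChIP, red dye) was hybridised against whole cell extract DNA (input, green dye) on 2 promoter arrays per antibody, 6 arrays in all. Arrays 1 and 2 carry different probes, with 113 receptor genes on array 1 and 57 on array 2. There was 1 biological replicate per antibody, so no value below has a replicate check, no p-value is given, and each SD is a spread over probes or genes of the same arrays. The arrays measure genomic DNA, so the cell type could not be checked by marker expression.

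Channel levels are given as log2 processed signal minus that channel's median over all probes of the array, and ratios as log2 ChIP over input, centred the same way. Signal strength differed between arrays. The median processed input signal was 180.3 and 439 units on the SMAD1/5 arrays, 516 and 491 on the SMAD2 arrays, and 905 and 935 on the SMAD4 arrays. Single-probe ratios had SDs of 1.93 and 1.76 on the SMAD1/5 arrays, of 0.93 and 0.91 on the SMAD2 arrays and of 0.99 and 0.98 on the SMAD4 arrays. The number of arrays limits the precision of everything that follows.

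Most promoters of these genes are low in GC, as are those of olfactory receptors, and a few are shown because channel levels are set beside GC content further on. Promoter sequences of 300 bases, from 250 before to 50 after the annotated start, were taken from RefSeq (GRCm38.p6) for 144 receptor symbols. The median GC content was 35.7% over these promoters, against 52.7% over all 32851 promoters of the table and 35.3% over 740 olfactory receptor promoters. The V1r median was 35.2% (98 promoters), the Tas2r median 37.3% (29) and the Taar median 37.3% (11). The 3 Tas1r promoters stood apart, at 52.7% to 58.0%. A CpG was absent from 29.9% of the receptor promoters, from 33.0% of olfactory receptor promoters and from 5.43% of all promoters. The annotated start was an ATG in 81.9% of receptor promoters, in 73.1% of olfactory receptor promoters and in 5.83% of all. All 11 Taar promoters and 27 of 29 Tas2r promoters began so, and none of the 3 Tas1r promoters did. In such cases the annotated start is the start of the listed transcript at its start codon, so distances to a start given below may not be distances to where transcription begins.

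Each sequence gives 250 bases before the annotated start in lower case and the first 3 bases from it in capitals, for 1 Tas1r gene and for members that stood at an extreme in the array data. Tas1r3 (chr4:155863351-155863603, minus strand) encodes the subunit common to the sweet and umami receptors. Tas2r138 (chr6:40613308-40613560, minus strand) had the highest SMAD4 window. Vmn1r197 (chr13:22327661-22327913, plus strand), called V1rh21 on the array, had a low SMAD1/5 window. Vmn1r38 (chr6:66777128-66777380, minus strand), called V1rc13 on the array, had the lowest SMAD4 peak among V1r genes. Taar5 (chr10:23970456-23970708, plus strand), the receptor for trimethylamine, had the highest SMAD4 peak among Taar genes.
Tas1r3: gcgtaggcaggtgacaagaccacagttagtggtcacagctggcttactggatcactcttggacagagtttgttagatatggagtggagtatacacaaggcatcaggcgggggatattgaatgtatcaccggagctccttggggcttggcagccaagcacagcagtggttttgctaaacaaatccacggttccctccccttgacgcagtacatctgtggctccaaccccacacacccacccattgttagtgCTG
Tas2r138: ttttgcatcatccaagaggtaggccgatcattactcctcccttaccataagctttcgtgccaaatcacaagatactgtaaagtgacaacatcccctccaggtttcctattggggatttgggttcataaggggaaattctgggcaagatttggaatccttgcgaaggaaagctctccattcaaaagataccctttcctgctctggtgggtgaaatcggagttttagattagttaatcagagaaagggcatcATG
Vmn1r197 (V1rh21): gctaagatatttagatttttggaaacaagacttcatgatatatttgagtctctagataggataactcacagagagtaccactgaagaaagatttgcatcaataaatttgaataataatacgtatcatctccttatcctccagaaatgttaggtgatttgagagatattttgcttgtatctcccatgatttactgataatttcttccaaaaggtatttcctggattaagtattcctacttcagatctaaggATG
Vmn1r38 (V1rc13): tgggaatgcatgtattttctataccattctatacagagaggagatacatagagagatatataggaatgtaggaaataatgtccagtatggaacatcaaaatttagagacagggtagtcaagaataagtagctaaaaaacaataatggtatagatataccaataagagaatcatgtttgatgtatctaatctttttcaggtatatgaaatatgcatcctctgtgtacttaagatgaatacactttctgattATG
Taar5: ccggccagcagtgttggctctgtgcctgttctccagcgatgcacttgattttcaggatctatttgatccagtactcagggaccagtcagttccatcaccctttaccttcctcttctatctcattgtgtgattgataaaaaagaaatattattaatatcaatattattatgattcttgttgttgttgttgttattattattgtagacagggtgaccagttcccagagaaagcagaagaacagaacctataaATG
The Tas1r3 promoter ended in CTG at this point and the other printed promoters in ATG. GC content over the 300 bases was 52.7% for Tas1r3, 44.0% for Tas2r138, 42.7% for Taar5, 35.3% for Vmn1r197 and 30.3% for Vmn1r38, which held no CpG.

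SMAD proteins are known to bind short DNA elements, so these were counted on both strands of the 300 bases. The SMAD box CAGAC was present in 69 of 144 receptor promoters (47.9%) and in 49.6% of all promoters of the same length. Its share was 58.6% in Tas2r, 45.9% in V1r and 18.2% in Taar promoters (2 of 11). Over the 300 bases, the Tas2r138 promoter held it 1 time, past the end of the printed stretch. The other 4 printed promoters did not hold it. The palindrome GTCTAGAC, which holds AGAC, the end of the SMAD box, on each strand, was in none of the receptor promoters and in 0.213% of all. The GC-rich element GGCGCC was in none of them either, and in 11.9% of all. These are letter matches in a window around the annotated start and not binding sites.

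With each antibody the receptor genes were dim in the ChIP channel and in the input channel alike. The median ChIP level of their probes was -1.10 ± 1.95 (SD over 3343 probes) with SMAD1/5, -1.35 ± 1.42 (3325 probes) with SMAD2 and -1.46 ± 1.60 (3345 probes) with SMAD4. Their median input level was -0.86 ± 1.89, -1.07 ± 1.50 and -1.37 ± 1.74. Over all probes each of these medians is 0 by construction. Ribosomal protein genes, which every cell uses, had ChIP medians of 0.38, 0.30 and 0.34 and input medians of 0.27, 0.29 and 0.52 in the same order. Olfactory receptor genes, with 19845 probes, had ChIP medians of -1.07, -1.43 and -1.59 and input medians of -0.89, -1.13 and -1.41, close to those of the receptors here.

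The dimness was shared by most members. Of 170 genes, 139 had an input median below 0 with all 3 antibodies and 153 had a ChIP median below 0 with all 3. No such count over all genes is given, and the shares that follow are for single antibodies. By antibody (SMAD1/5, SMAD2, SMAD4), input medians were below 0 in 87.0%, 92.0% and 96.9% of 162 receptor genes with at least 3 probes. Over all genes the shares were 48.2%, 47.9% and 46.6%. ChIP medians were below 0 in 92.6%, 96.9% and 97.5%, against 47.1%, 48.6% and 47.6% of all genes. Olfactory receptor genes had 88.9%, 91.4% and 95.6% in input and 88.3%, 94.7% and 95.7% in ChIP. Only Tas1r1 and Tas1r2, the umami and sweet partners of Tas1r3, were above 0 in both channels with all 3 antibodies. The software replaces a spot near or under background with a surrogate value, and this applied to the input of 38.5% of receptor probes with SMAD1/5, 24.4% with SMAD2 and 1.64% with SMAD4. Over all probes it applied to 20.2%, 12.7% and 0.36%. Ratios at such spots have no measured input. In the ChIP channel surrogates stood at 10.8%, 22.4% and 1.88% of receptor probes, against 3.96%, 6.37% and 0.29% of all probes. Ratios at those spots have no measured ChIP level.

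The ratios were closer to the array medians than the channels were. The median log2 ratio of receptor probes was -0.40 ± 1.76 with SMAD1/5, -0.18 ± 0.93 with SMAD2 and -0.11 ± 1.13 with SMAD4. A ratio of at least 1 was reached by 19.7% of receptor probes with SMAD1/5, against 27.5% of all probes, by 5.80% with SMAD2, against 12.7%, and by 17.3% with SMAD4, against 16.5%. A ratio of at most -1 was reached by 40.3% with SMAD1/5, against 31%, and by 21.6% with SMAD2, against 13.5%. With SMAD4 it was reached by 15.6% of receptor probes on array 2, against 9.95% of all probes there, and on array 1 by 396 of 2084 receptor probes (19.0%), against 24183 of 237153 probes in all. The low tail was therefore above the background with all 3 antibodies, though with SMAD1/5 on array 1 only, and the high tail below it with SMAD1/5 and SMAD2. With SMAD1/5 the low share was 47.1% on array 1, against 32.9% of all probes, and 29.1% on array 2, against 29.1%. The negative SMAD1/5 median also came from array 1, where the median ratio was -0.82 and 49.5% of input spots were surrogates. On array 2 it was -0.02, with 20.3% surrogates. The part of surrogate spots in this difference was not tested. Olfactory receptor probes had median ratios of -0.29, -0.18 and -0.17. Of these probes, 37.5%, 21.1% and 18.8% had a ratio of at most -1, and 20.0%, 5.65% and 17.5% had a ratio of at least 1.

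In classes of like measured input, the receptor probes had lower ChIP levels than all probes. The measured input holds noise and surrogate values, so such classes do not match probes on their true input. The part of this in the difference was not tested. All probes were put into 10 equal classes by their input signal within each antibody. The dimmest class held 16.6% of receptor probes with SMAD1/5, 21.4% with SMAD2 and 30.3% with SMAD4. In it, the median ChIP level of receptor probes was -2.99, -2.58 and -2.91, against -2.04, -1.93 and -2.09 for all probes. In class 5 it was -0.44, -0.76 and -0.78, against -0.01, -0.14 and -0.22. In the brightest class, which held 174, 100 and 57 receptor probes, it was 0.98, 2.54 and 1.79, against 1.79, 2.68 and 1.80. The receptor median was the lower in all 10 classes with each antibody, though in the brightest class with SMAD4 by a small margin, 1.79 against 1.80. The median ratio, in contrast, was higher for receptor probes in that class, at -0.30 against -0.44.

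Channel levels followed promoter GC. Among genes of the whole array with a promoter in the table, the median ChIP level rose from -1.48, -1.81 and -2.05 (SMAD1/5, SMAD2, SMAD4) at under 35% GC, over 470 genes, to 0.13, 0.19 and 0.19 at 50% to 60%, over 4309 genes. Receptor genes of the lowest class, 59 in number, had ChIP medians of -1.62, -1.93 and -2.12 and input medians of -1.08, -1.34 and -1.73. The input medians of all genes of that class were -1.06, -1.40 and -1.72. In the class of 35% to 40%, the 57 receptor genes had ChIP medians of -0.91, -1.30 and -1.37, against -0.85, -1.24 and -1.37 for 536 genes. In the class of 40% to 45% the 22 receptor genes were dimmer in ChIP, at -1.10, -1.07 and -1.14, against -0.43, -0.64 and -0.60 for 875 genes. In the class of 45% to 50%, with 4 receptor genes, the ChIP medians were -0.92, -0.78 and -0.46, against -0.13, -0.20 and -0.15 for 1325 genes. The genes of these classes include the receptors themselves and many olfactory receptors, 345 of the 470 at under 35% and 203 of the 536 at 35% to 40%. Genes that are neither kind of receptor were brighter at like promoter GC. Their ChIP medians were -1.14, -1.46 and -1.43 at under 35% (66 genes), -0.70, -0.92 and -0.93 at 35% to 40% (276 genes) and -0.37, -0.58 and -0.51 at 40% to 45% (733 genes). The receptor genes were thus dimmer in ChIP than these genes in each class under 50% with each antibody, and were close to the olfactory receptors at under 35%, which had -1.52, -1.86 and -2.10. Across the 146 receptor genes with a promoter, the correlation of GC with the ChIP level was 0.34, 0.53 and 0.58, and with the input level 0.24, 0.44 and 0.38. The correlation of GC with the ratio was 0.07, 0.17 and 0.32. Genes of a cluster share sequence, so these are descriptions.

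Averaged over all genes, probes near the annotated start were brighter than probes upstream, and the receptor genes had a smaller difference. With SMAD4, the mean input level of all genes was 0.42 within 500 bp of the annotated start and -0.44 from 2000 to 4000 bp upstream. Receptor genes had -1.43 ± 0.07 (SE over 549 probes) and -1.64 ± 0.06 (750 probes). In ChIP with SMAD4 the means of receptor genes were -1.39 within 500 bp and -1.78 upstream, against 0.30 and -0.40. Taar genes were brighter near the start with SMAD2 and SMAD4. Their mean ChIP level there was 0.07 ± 0.23 with SMAD2 and -0.21 ± 0.19 with SMAD4 (SE over 55 probes), against -0.67 and -1.11 upstream (81 probes). With SMAD1/5 it was -0.36 ± 0.26, against -0.52 ± 0.22 upstream. The mean Taar ratio near the start was 0.40 ± 0.14 with SMAD4, 0.10 ± 0.13 with SMAD2 and -0.17 ± 0.22 with SMAD1/5. Upstream it was 0.02, -0.27 and -0.52 in the same order. Over all genes the mean ratio near the start was -0.01, 0.04 and -0.50. These SEs are over probes of the same arrays and measure no replicate spread.

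Among vomeronasal receptors, V1r genes had median ratios of -0.41 ± 1.73, -0.19 ± 0.90 and -0.14 ± 1.13 (SMAD1/5, SMAD2, SMAD4) over 2059, 2048 and 2060 probes. All 12 V1r subfamilies had ChIP and input medians below 0 with each antibody. The V1rc subfamily, 28 genes, had the lowest ChIP medians, -2.00, -2.02 and -2.66. Its input medians were -1.04, -1.50 and -2.26, the lowest with SMAD2 and SMAD4, while with SMAD1/5 that of V1rj was lower, at -1.18. Its SMAD1/5 ratio of -1.32 was the lowest of the subfamilies. The V1rf subfamily, 5 genes, had the highest SMAD1/5 ratio, 0.30. All V1rc probes are on array 1 and all V1rf probes on array 2, so subfamily and array cannot be told apart here. V1r clusters on chromosomes 6, 7, 13 and 17 had SMAD1/5 ratios of -1.08, -0.77, -0.16 and 0.04. The first pair lies on array 1 and the second on array 2, so cluster and array cannot be told apart. Their SMAD4 ratios were -0.16, -0.22, 0.00 and -0.16.

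The 4 V2r genes had at most 6 probes each and little can be read from them. V2r10 and V2r11, which share the current symbol Vmn2r89, had median SMAD4 ratios of 0.68 ± 1.27 (4 probes) and -0.59 ± 0.63 (6 probes). V2r16 had SMAD1/5, SMAD2 and SMAD4 ratios of -1.96, -0.20 and -0.49, and V2r1b of -2.71, 0.24 and -1.10.

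The Tas1r genes were bright. Tas1r1 had ChIP medians of 0.84, 1.15 and 1.09 and input medians of 0.81, 0.81 and 0.84 with SMAD1/5, SMAD2 and SMAD4. Tas1r2 had ChIP medians of 0.68, 0.93 and 0.42 and input medians of 0.20, 0.91 and 0.14. Tas1r3 had ChIP medians of -0.41, 0.93 and 0.35 and input medians of 0.82, 1.11 and -0.09. Their median ratios were all below 0 with SMAD1/5, at -0.30, -0.83 and -0.89, and all above 0 with SMAD4, at 0.10, 0.48 and 0.08, each with an SD over probes of at least 0.85. Over the probes of the family the SMAD1/5 median of -0.515 came to -0.0039 with normexp background correction. With SMAD2 they were 0.09, 0.02 and -0.11. None had an enriched or a low window.

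The Tas2r genes had median ratios of -0.69 ± 1.84, -0.20 ± 0.95 and -0.05 ± 1.18. These moved with the processing, the SMAD1/5 median to -0.034 with the authors' values and -0.057 with loess, and the SMAD4 median to -0.54 with normexp background correction. Nearly all lie on chromosome 6, 31 of 33. Over 21 probes, Tas2r113 had among the lowest median ratios of the family with SMAD1/5, -1.95 ± 1.48, and with SMAD2, -0.86 ± 0.78. With SMAD4 it had -0.26 ± 0.90, against a median of -0.15 over the Tas2r genes. Tas2r144 had the highest median ratio with SMAD2, 0.38 ± 0.49, and with SMAD4, 0.96 ± 1.02, over 14 probes, and -1.29 ± 2.50 with SMAD1/5. Tas2r119, the single member on chromosome 15, had -0.80 ± 1.61, -0.74 ± 1.10 and 0.79 ± 1.11 over 30 probes.

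The Taar genes were the least dim of the large families and their ratios lay around 0. All their probes are on array 2 and 797 of 827 Tas2r probes with a SMAD1/5 value are on array 1, so for this pair family and array cannot be told apart. On array 2 the ChIP medians were -0.42, -0.87 and -0.84 for Taar probes, against -0.78, -1.31 and -1.34 for V1r probes. Their median ratios were 0.05 ± 1.69, -0.13 ± 1.02 and -0.12 ± 1.03. With SMAD1/5 they ran from -0.80 in Taar9 to 0.81 in Taar8c. Taar4, which responds to phenylethylamine, had 0.77 and Taar1 had 0.45 with that antibody. The same 2 genes had SMAD4 ratios of -0.23 and -0.43. With SMAD2 the family ran from -0.42 in Taar7d to 0.20 in Taar4, and with SMAD4 from -0.79 in Taar7a to 0.38 in Taar2. Taar3 had ratios of -0.30, -0.17 and 0.09, Taar5 of -0.60, 0.01 and 0.06, and Taar6 of 0.04, -0.10 and -0.00. The Taar7 genes, close copies of each other, had SMAD4 ratios of -0.79 (Taar7a), -0.51 (Taar7b), -0.38 (Taar7d), -0.09 (Taar7e) and -0.50 (Taar7f), all negative. The Taar8 genes had 0.15 (Taar8a), -0.71 (Taar8b) and -0.19 (Taar8c).

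To look for local enrichment, each probe's window was the mean ratio of the probes within 500 bp, at least 3 of them. Its z counts how many robust SDs it lies from the median of all windows on that array. That SD was taken from the windows below the median and used on both sides. Enriched and low calls thus share a scale set by the lower side. Enriched windows had a z of 4 or more and low windows a z of -4 or less, each with at least 2 probes past the outer 5% of single probes. Windows were available for 152 receptor genes (98 V1r, 3 V2r, 3 Tas1r, 33 Tas2r and 15 Taar). Gene calls were few. With SMAD1/5 none of the 152 was enriched, against 0% of 16543 genes, and 2 were low, against 2.61%. With SMAD2 none was enriched, against 0.0665%, and 2 were low, against 0.339%. With SMAD4 2 were enriched, against 2.48%, and none was low, against 0.0484%. Each count of 2 is 1.32% of 152, which is under the background for SMAD1/5 and SMAD4 and over it for SMAD2.

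Tas2r138, a bitter receptor related to the human receptor for phenylthiocarbamide, had a SMAD4 window z of 6.08, the highest of the receptors. The window holds probes from -2317 to -2659 bp relative to the annotated start, at chr6:40545623-40546021 in the array annotation. Its 4 probes had SMAD4 ratios of 2.28, 4.37, 5.31 and 1.89, a mean of 3.46 ± 1.64. The SMAD4 ChIP levels of these probes were -1.20, 0.10, -0.72 and -0.88, and the SMAD4 input levels -3.37, -4.15, -5.92 and -2.66. The high ratio thus stood on an input far below the array median and not on a high ChIP signal. The SMAD2 input levels of the same probes were -2.63, -0.47, 0.76 and -0.12. The same window had a z of 0.04 with SMAD1/5 and -0.20 with SMAD2.

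Tas2r121, another bitter receptor, had a SMAD4 window z of 5.02 at chr6:132744224-132744812, from -166 to -695 bp relative to the annotated start. Its 3 probes had ratios of 1.43, 3.86 and 3.32, a mean of 2.87 ± 1.27. Their SMAD4 ChIP levels were -4.26, -1.59 and -2.39 and their SMAD4 input levels -5.58, -5.33 and -5.59. All 6 of these levels were below the array medians. The window had a z of -2.36 with SMAD1/5 and -0.96 with SMAD2.

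The low windows with SMAD1/5 went with very bright input spots. At Tas2r110 the window at chr6:132911612-132912335, 554 to 1218 bp downstream of the annotated start, had a z of -4.42 and ratios of -2.27, -6.59 and -7.61. Its SMAD1/5 input levels were -1.29, 7.36 and 8.54, while the SMAD2 input of the same probes was -1.28, -1.86 and -2.79 and the SMAD4 input -1.17, -1.83 and -3.34. This window had a z of 1.23 with SMAD2 and 1.45 with SMAD4. At V1rh21 the window at chr13:21694077-21694390, 207 to 461 bp downstream of the annotated start, had a z of -4.19 and ratios of -5.99, -6.74 and -0.93. Its SMAD1/5 input levels were 7.11, 6.32 and -2.04, and the SMAD2 input of the same probes 0.39, -0.66 and -2.68. With SMAD4 the same window of V1rh21 had a z of 2.56. In both windows 2 neighbouring probes were bright in the SMAD1/5 input alone.

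The low windows with SMAD2 went with ChIP levels below the array median and input levels around or above it. Taar8b had a z of -4.26 at chr10:23841161-23842012, with ratios of -2.18, -2.55, -2.90 and -1.57. Its SMAD2 ChIP levels were -2.41, -2.08, -1.87 and -1.08 and its input levels -0.29, 0.40, 0.97 and 0.42. Tas2r107 had a z of -4.12 at chr6:131732425-131732829, with ratios of -0.97, -2.28 and -3.65, ChIP levels of -0.28, -0.31 and -2.78 and input levels of 0.60, 1.88 and 0.78. With SMAD1/5 and SMAD4 the same windows had z values of 0.61 and -0.41 at Taar8b and of -0.51 and -0.80 at Tas2r107. Each of the 6 called windows was thus past the threshold with only 1 of the 3 antibodies. Under 8 other processing settings, Tas2r138 stayed enriched in 4 and Tas2r121 in 2. The highest z over all windows of Tas2r121 was below 0 in 4 others. The genes with low windows stayed low in 3 (Tas2r110 and Tas2r107), 4 (V1rh21) and 5 (Taar8b). With the authors' values neither Tas2r138 nor Tas2r121 was called.

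A gene's peak is its highest window and its trough its lowest. Both, and the calls, depend on how many windows a gene has, which was not matched between receptor genes, families and all genes. At a lower threshold, a peak z of at least 2 was reached by 3 of 152 receptor genes with SMAD1/5 (1.97%, against 5.95% of all genes), by 8 with SMAD2 (5.26%, against 18.4%) and by 59 with SMAD4 (38.8%, against 40%). The 3 with SMAD1/5 were Tas2r119 (2.17), Tas2r117 (2.15) and V1ri1 (2.00). With SMAD2 the highest was V1rd6 at 3.90, where the window mean was 2.24 ± 3.36 over 4 probes. It was followed by V1rd16 (2.71), V1rh16 (2.67), Tas2r126 (2.30), Taar2, Taar7a and Taar7b (2.28 each) and Taar6 (2.01). Taar7a and Taar7b share the same window. With SMAD4 the share was 54.5% of Tas2r genes (18 of 33), 35.7% of V1r genes (35 of 98) and 26.7% of Taar genes (4 of 15). Below Tas2r138 and Tas2r121 the highest were V1rb4 (3.95, mean 2.27 ± 0.70 over 3 probes), V1re5 (3.61), Tas2r120 (3.51) and V1re1 (3.35). Taar5 reached 2.98, with a mean of 1.73 ± 0.17 over 4 probes, with the window centred at -695 bp from its start. The lowest SMAD4 peaks were those of Tas2r140 (-2.69, 3 probes), V1rc13 (-1.80) and V1rc8 (-1.78).

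The median peak z of receptor genes was 0.79, 0.54 and 1.81 with SMAD1/5, SMAD2 and SMAD4, against 1.26, 1.35 and 1.74 over all genes. A trough z of at most -2 was reached by 45 receptor genes with SMAD1/5 (29.6%, against 32.2%), by 80 with SMAD2 (52.6%, against 30.1%) and by 43 with SMAD4 (28.3%, against 18.3%). With SMAD2, 22 of 33 Tas2r genes and 50 of 98 V1r genes were among them. Olfactory receptor genes had shares of 36.4%, 54.1% and 40.9%.

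Few receptor genes had a peak z of at least 2 with more than 1 antibody. Only 3 of 152 had it with SMAD1/5 and 8 with SMAD2, which limits how many could be shared. None reached it with both SMAD1/5 and SMAD2, where over all genes 294 did (29.9% of the SMAD1/5 genes and 9.65% of the SMAD2 genes). SMAD1/5 and SMAD4 had 2 in common (66.7% of the SMAD1/5 genes and 3.39% of the SMAD4 genes), against 41.4% and 6.14% over all genes. SMAD2 and SMAD4 also had 2 (25.0% and 3.39%), against 43.1% and 19.8%. The difference from all genes was not tested. None reached it with all 3. Over the probes of the receptors, the ratio correlated at 0.03 between SMAD1/5 and SMAD2, 0.05 between SMAD1/5 and SMAD4 and 0.09 between SMAD2 and SMAD4, against 0.04, 0.03 and 0.06 over all probes. The ChIP channel correlated at 0.50, 0.57 and 0.74, against 0.60, 0.63 and 0.80, and the input channel at 0.38, 0.30 and 0.50, against 0.48, 0.41 and 0.54. The ratio contains the input, and with each antibody it correlated with its own input at -0.44, -0.39 and -0.44, against -0.60, -0.42 and -0.51 over all probes. The points share probe sequences, so these are descriptions.

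Other genes linked to these sensory systems, 46 in a mixed list, were less dim. The list holds G proteins, channels, enzymes, chaperones, transcription regulators and vomeronasal surface proteins, among others. Windows were available for 40, and the median ChIP levels of the list were 0.10, 0.21 and 0.01 and its input levels 0.06, 0.27 and -0.06. With SMAD4 1 of the 40 was enriched, Ano2 (4.34), a calcium-activated chloride channel of olfactory neurons, where 2.48% of all genes were. With SMAD1/5 2 of the 40 were low, against 2.61% of all genes, namely H2-M11 (-4.98), a non-classical MHC gene of vomeronasal neurons, and Gnal (-4.17), the olfactory G protein. A peak z of at least 2 was reached by 2 genes with SMAD1/5, 4 with SMAD2 and 17 with SMAD4, or 5.00%, 10.0% and 42.5%, against 5.95%, 18.4% and 40% of all genes. The highest were Entpd2 (2.81), an ecto-ATPase of taste buds, with SMAD1/5, Rtp2 (2.72), a receptor chaperone, with SMAD2, and Slc24a4 (3.64), an ion exchanger of olfactory neurons, after Ano2 with SMAD4.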

How the data were processed

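Each deposited scanner file gives an intensity per spot and channel, which Agilent Feature Extraction had background-subtracted, detrended and dye-normalised per the file headers (9.1.3.1 for SMAD1/5 and SMAD2, 9.5.3.1 for SMAD4). For SMAD4, extraction version and antibody cannot be told apart. Other columns of the deposited files flag surrogate, outlying and saturated spots. The authors' deposited log2 values (limma, per the submitters' processing notes) were used as an alternative. They correlated with the scanner ratio (r from 0.74 to 0.95). Their column medians were 0.08, 0.05 and -0.0047 on array 1 and -0.01, 0.04 and -0.0023 on array 2 (SMAD1/5, SMAD2, SMAD4). Their scale and centring stay unknown.

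Outlier spots (0.0084% to 1.82% of probes) were left out, saturated spots kept, and log2 ratios centred on each array's median. There was no dye swap. Of 170 gene names, 165 were matched to current symbols through an accession, 3 through an older symbol and 1 through a symbol, and 1 kept its array name. The sources used here do not name the build of the array's coordinates. GRCm38.p6 served for names and promoters. Promoters were compared with blastn. The members and lists were chosen with earlier results of these data known, and the promoter comparisons were added after seeing the data. Genes given with values were all Tas1r and Taar members, those with called windows, and extremes of the other families. On simulated data with a noise SD of 1, the window rule recovered 49 of 50 planted blocks of 3 and 50 of 50 of 5, and made 18 calls in the noise. A z of 4 is a log2 height of 2.23 to 2.30 with SMAD2 and SMAD4 and of 4.17 and 4.61 with SMAD1/5, whose noise is larger than simulated. Python 3.11.15, numpy 2.4.6, pandas 2.3.3, R 4.3.3 and limma 3.58.1 were used.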

Additional observations from a re-analysis of the deposited data

Results flagged for a closer look

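The Tas1r family stood out because all 3 of its genes had a median ratio below 0 with SMAD1/5 and above 0 with SMAD4. The median over the family's probes was -0.515 with SMAD1/5 and 0.289 with SMAD4. The SMAD1/5 value was -0.0039 with normexp background correction, -0.037 with the trend on the own input removed and -0.15 with loess and with the authors' values. The difference was not tested, since there is 1 array per antibody and probe.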

How the results depend on the processing

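No paired analysis was possible because each antibody has 1 array per probe set and no replicate. Values below are in the order SMAD1/5, SMAD2, SMAD4 unless named.

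The median ratio of receptor probes stayed below 0 under each alternative run. It was -0.13, -0.32 and -0.40 with normexp background correction, -0.098, -0.24 and -0.31 with loess, -0.053, -0.33 and -0.19 with the authors' values, -0.093, -0.21 and -0.46 against the mean input of the 3 arrays, and -0.68, -0.61 and -0.58 with the trend on the own input removed. That trend was taken on the same measured input. With bright probes only the median ratio was -0.18 for SMAD1/5 and -0.25 for SMAD2. Array 1 alone gave -0.82 and -0.20 for these antibodies, and array 2 alone -0.015 and -0.15.

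The calls were less stable. Low receptor genes with SMAD1/5, 2 in the report, numbered 14 with normexp (9.21%, against 16.8% of all genes), 7 with the authors' values (4.61%, against 7.72%), 0 with the mean input, 1 with the trend removed, 1 with bright probes only, 1 with windows of 250 bp, 7 at a z of 3, 0 at a z of 5, and 1 on each array. With SMAD2, also 2, they numbered 0 with normexp, 4 with loess, 1 with the trend removed, 4 with bright probes, 16 at a z of 3 (of 152, against 836 of 16539 genes), 0 at a z of 5 and 1 on each array. With SMAD4 they numbered 7 with the mean input (4.61%, against 1.18% of all genes), 18 with the trend removed (11.8%, against 1.85%) and 4 at a z of 3 (2.63%, against 1.21%), where the report has 0. Enriched receptor genes with SMAD4, 2 in the report, numbered 0 with normexp, 0 with the authors' values, 0 with the mean input, 0 with the trend removed, 1 with bright probes, 11 at a z of 3 (of 152, against 1759 of 16543 genes) and 0 on array 2. With SMAD2 there was 1 at a z of 3. The cause was not tested.

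Tas2r138 stayed enriched in 4 of 8 alternatives (z from 1.37 to 6.10) and Tas2r121 in 2. The Tas2r121 peak z was -0.088 with normexp, -0.24 with the mean input, -0.45 with bright probes and -0.37 with windows of 250 bp. The last value is of another window, because the called one has fewer than 3 probes within 250 bp. Of the low genes, Tas2r110 stayed low in 3, V1rh21 in 4, Tas2r107 in 3 and Taar8b in 5. The Taar median with SMAD2 was 0.42 with normexp. Surrogate inputs, most frequent with SMAD1/5, limit what its ratios can show. Surrogate ChIP values, most frequent with SMAD2 (22.4% of receptor probes), limit the SMAD2 ratios as well.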

Other observations

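Some V1r and V2r promoters are near copies of others of their family, which matters for probes that may not tell them apart. Among 98 V1r promoters, 23 matched another promoter of the family at 90% identity or more over at least 200 bases, and 11 at 95% or more. All 3 V2r promoters matched another of their family at 90% or more, and 1 at 95% or more. No Tas1r, Tas2r or Taar promoter matched another at 90%, and 3 Taar promoters did at 80%. The promoters of Vmn1r47 and Vmn1r48 (V1ra4 and V1ra3 on the array) were identical over 300 bases. V1ra4 had median ratios of -1.81, -0.04 and -0.54 with SMAD1/5, SMAD2 and SMAD4 over 6 probes, and V1ra3 had -1.49, 0.85 and 0.40 at its only probe. V1rh16 and V1rh17, whose promoters were 95.3% identical, had SMAD1/5 ratios of 1.23 ± 0.74 (7 probes) and -0.20 ± 1.29 (6 probes), and SMAD2 ratios of -0.14 and -0.16. How far such probes share signal was not tested, as the probe sequences were not used here.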
